A study of Mus musculus with 16 samples.

Results

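Wnt ligands, their receptors and the pathway's antagonists were followed across 4 groups of cultured mouse cells labelled as oligodendrocyte precursor cells (OPCs). The genes were chosen by symbol as protein-coding genes of the Wnt, Frizzled (Fzd), Lrp5 and Lrp6, Sfrp, Dkk, R-spondin (Rspo), Lgr4 to Lgr6 and Nkd families, together with Axin1, Axin2, Lef1, Tcf7, Tcf7l1, Ctnnb1, Apc, Apcdd1, Notum, Wif1, Rnf43 and Znrf3. This gave 60 of the 55335 genes in the count files. Of these, 52 passed the filter on low counts and were tested, and Wnt3a, Wnt8a, Wnt9b, Wnt10b, Wnt16, Rspo4, Dkk1 and Dkk4 did not pass it.

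The cells were grown from neural stem cells of a C57BL6J/129svEmx mixed background and taken on day 4 of monolayer culture for 16 RNA libraries. The groups were RXRgKO-labelled cells, described as RXRg-/-, treated for 24 h with the thyroid hormone triiodothyronine (T3), RXRgKO-labelled cells left untreated, WT-labelled cells, described as RXRg+/+, treated with T3, and WT-labelled cells left untreated, with 4 libraries each. The retinoid X receptor gamma is a nuclear receptor that can pair with the thyroid hormone receptor, and T3 is a classical inducer of oligodendrocyte differentiation. How the knockout allele was made is not stated in the labels. They also do not name a culture or animal of origin for each library, and every p-value below therefore covers the spread among the libraries only, which may be technical.

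Wnt proteins bind a Frizzled receptor together with the co-receptor Lrp5 or Lrp6. In the canonical branch this stops the destruction complex, built on Axin and Apc, from removing beta-catenin (Ctnnb1), which then activates genes with TCF and LEF factors; Axin2, Lef1, Nkd1, Notum, Apcdd1, Rnf43 and Znrf3 are well-known targets of this branch that feed back on it. R-spondins bind Lgr4 to Lgr6 and take the ubiquitin ligases Rnf43 and Znrf3 off the cell surface, so that Frizzled receptors stay there, whereas Sfrp, Dkk, Wif1, Notum and Apcdd1 act against the ligands or receptors outside the cell. In the oligodendrocyte lineage, canonical Wnt activity is known for delaying the differentiation of OPCs.

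Gene counts came to 18262279 to 42588442 per library. Rxrg, the targeted gene, was at 4.26 to 5.44 CPM and 3.77 to 4.81 CPM in the T3-treated and untreated RXRgKO-labelled libraries, against 0.371 to 0.959 CPM and 1.13 to 1.79 CPM in the T3-treated and untreated WT-labelled libraries, where CPM is the read count scaled to a common, normalised library size. Rxrg thus went against the genotype labels, and directions below are between labels. Libraries also stood apart within groups. WT-labelled replicate 1 differed from replicates 2 to 4 in both treatments, and the RXRgKO-labelled libraries split into untreated replicates 1 and 3 and T3-treated replicates 1 and 2, which lacked Xist, the RNA of the inactive X chromosome, and the other 4, which had it. All 10 OPC markers examined were detected, with summed levels of 2405 to 4672 CPM in T3-treated and 2819 to 5391 CPM in untreated RXRgKO-labelled libraries, against 3279 to 4961 CPM in T3-treated and 4001 to 5688 CPM in untreated WT-labelled libraries. Astrocyte markers were present as well, at 4655 to 8473, 3112 to 6024, 5108 to 15774 and 3499.7 to 8837 CPM in the same order of groups.

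Per length, as FPKM, CPM divided by the kilobases of exon (mean over all 16 libraries), Ctnnb1 stood highest. It averaged 218 FPKM, the receptor gene Fzd3 39.8 FPKM and Apc 33.5 FPKM. The leading extracellular genes were Sfrp1, which encodes a secreted Wnt-binding protein, at 15.1 FPKM, and the ligand genes Wnt7a and Wnt7b, at 9.94 and 9.44 FPKM. Wnt7a and Wnt7b are known as the ligands by which neural cells, OPCs among them, signal to brain endothelium. After them came Wnt5b at 3.73, Wnt5a at 3.65 and Wnt3 at 2.22 FPKM, and the other ligand genes lay below 1 FPKM. The level of Wnt7a was not tested against that of Wnt7b, nor that of Wnt5b against that of Wnt5a.

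**Figure D1:**
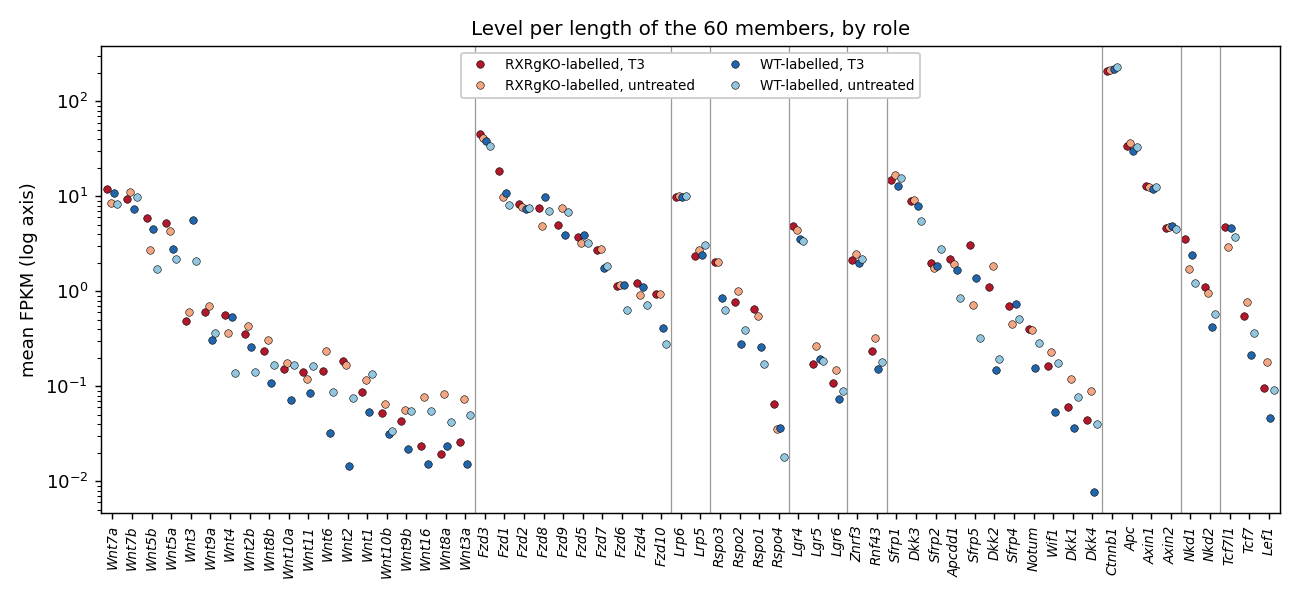
Mean level per length (FPKM, log axis) of the 60 genes in the 4 groups, ordered by role and by level within a role. Each point is the mean of 4 libraries; vertical lines part the roles. Ctnnb1 (218 FPKM) lies above all others, and of the 52 genes tested Dkk2, Wnt2 and Wnt3 have the group means furthest apart. Wnt2 passed the filter on low counts through RXRgKO-labelled libraries alone. Its mean in T3-treated WT-labelled libraries rests on 3 counts.

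For T3, 4 of the 52 genes tested were called under the RXRgKO label and 9 under the WT label, and the same 4 were called in both. With T3, Wnt5b, Sfrp5 and Nkd1 rose and Fzd9 fell in RXRgKO-labelled and in WT-labelled cells. Wnt5b encodes a ligand best known for signalling without beta-catenin, Sfrp5 a secreted protein that binds Wnts, Nkd1 a Dishevelled-binding inhibitor inside the cell and Fzd9 a Frizzled receptor. In WT-labelled cells alone, the ligand genes Wnt3 and Wnt4, the receptor gene Fzd6, the membrane inhibitor gene Apcdd1 and Sfrp4 also passed the threshold, an adjusted p under 0.05 over all 19764 genes tested. The difference between the T3 responses was called for 0 of the 52 genes, so none of these is shown to respond under 1 label only.

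In all, 4 of the 52 genes tested (7.69%) were called for T3 in RXRgKO-labelled cells, 3 higher and 1 lower. Over all genes tested 2.81% were called, 2.01% higher and 0.794% lower. For T3 in WT-labelled cells 9 (17.3%) were called, 8 higher and 1 lower, and over all genes 8.44% were called, 4.96% higher and 3.48% lower. The median log2 fold change of the 52 was -0.02 and that of all genes -0.0019 in RXRgKO-labelled cells, and -0.05 and -0.03 in WT-labelled cells.

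Promoter sequences are shown for 3 of the 4 genes that moved under both labels, since T3 acts through a nuclear receptor that binds DNA. They run from 250 bases before to 50 bases after a transcript start, 5′ to 3′ along the gene's strand, and come from RefSeq on GRCm38.p6, whose table held 47 promoters of 38 of the 60 genes. Capitals mark CTTTGAT, a core motif of TCF and LEF factors, on either strand. Wnt5b has 3 starts in the table, of which the outermost and the one holding the motif are given.
Wnt5b, outermost start, chr6:119544298-119544597, minus strand: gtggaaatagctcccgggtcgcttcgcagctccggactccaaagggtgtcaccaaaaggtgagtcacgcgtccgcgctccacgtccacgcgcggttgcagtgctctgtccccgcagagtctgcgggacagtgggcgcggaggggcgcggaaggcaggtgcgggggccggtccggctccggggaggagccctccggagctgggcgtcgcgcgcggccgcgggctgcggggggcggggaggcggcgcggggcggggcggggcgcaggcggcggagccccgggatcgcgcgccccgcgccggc
Wnt5b, inner start, chr6:119449337-119449636, minus strand: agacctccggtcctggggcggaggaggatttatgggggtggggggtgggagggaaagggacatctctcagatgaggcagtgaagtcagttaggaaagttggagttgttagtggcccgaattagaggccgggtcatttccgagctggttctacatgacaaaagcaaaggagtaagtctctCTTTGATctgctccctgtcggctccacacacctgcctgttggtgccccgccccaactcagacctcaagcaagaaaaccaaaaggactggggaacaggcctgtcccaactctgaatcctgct
Sfrp5, chr19:42202203-42202502, minus strand: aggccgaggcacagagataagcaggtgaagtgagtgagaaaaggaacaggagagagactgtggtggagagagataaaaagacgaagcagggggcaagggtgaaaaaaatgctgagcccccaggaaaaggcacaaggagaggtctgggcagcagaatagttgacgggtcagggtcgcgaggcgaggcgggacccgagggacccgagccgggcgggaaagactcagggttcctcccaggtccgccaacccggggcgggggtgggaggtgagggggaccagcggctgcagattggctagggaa
Fzd9, chr5:135250998-135251297, minus strand: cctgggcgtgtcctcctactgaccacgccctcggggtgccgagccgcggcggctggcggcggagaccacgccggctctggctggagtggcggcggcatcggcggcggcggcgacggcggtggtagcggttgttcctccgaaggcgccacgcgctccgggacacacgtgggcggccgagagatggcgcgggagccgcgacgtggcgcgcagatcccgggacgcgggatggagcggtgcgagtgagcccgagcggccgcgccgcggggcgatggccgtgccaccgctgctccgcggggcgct

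The inner Wnt5b start lies 94961 bases inside the gene as GENCODE M21 draws it, and the Fzd9 start 183 bases from that gene's GENCODE start. The Nkd1 entry lies 6279 bases inside its gene and is not shown. CTTTGAT occurred in 3.73% of all 32851 promoters in the table and in 2 of the 47 considered here, those of Wnt5b and Wnt11. AGGTCA, the half-site of nuclear receptors, on either strand, occurred in 16.3% of all promoters and in 2 of the 47, those of Tcf7 and Wnt16. A direct repeat of AGGTCA with any 4 bases between its copies, the classical thyroid hormone response element, which overlaps the half-site motif by construction, was in 5 of the 32851 promoters and in 0 of the 47. A match is only a description of these letters.

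Wnt5b (ENSMUSG00000030170, GRCm38 chr6:119432531-119544347, minus strand) was at 14.5, 12.1, 17.7 and 18.5 CPM in the T3-treated RXRgKO-labelled libraries, 9.66, 4.84, 9.07 and 5.42 CPM in the untreated RXRgKO-labelled ones, 12.5, 11, 12 and 12.9 CPM in the T3-treated WT-labelled libraries and 4.63, 4.09, 4.62 and 5.04 CPM in the untreated WT-labelled ones. Every T3-treated library lay above every untreated one of its label. The change was log2 fold change 1.12, SE 0.20, adjusted p = 0.00462 under the RXRgKO label and log2 fold change 1.40, SE 0.21, adjusted p = 0.00039 under the WT label. Within library sets, log2 CPM with T3 minus untreated was 0.50 in RXRgKO-labelled libraries without Xist and 1.80 in those with Xist, and the call under the RXRgKO label was lost when the libraries with Xist were left out.

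Sfrp5 (ENSMUSG00000018822, GRCm38 chr19:42197971-42202252, minus strand) measured 4.09, 3.73, 7.28 and 8.39 CPM in the T3-treated RXRgKO-labelled libraries, 0.853, 1.81, 0.89 and 1.94 CPM in the untreated RXRgKO-labelled ones, 3.76, 1.87, 1.7 and 3.25 CPM in the T3-treated WT-labelled libraries and 0.609, 0.632, 0.631 and 0.565 CPM in the untreated WT-labelled ones. Again the T3-treated and untreated libraries of a label did not overlap, and the lowest values were those of untreated WT-labelled cells. It rose under both labels (log2 fold change 2.09, SE 0.33, adjusted p = 0.00167 under RXRgKO, log2 fold change 2.12, SE 0.38, adjusted p = 0.00181 under WT). The differences within sets were 2.07 lacking Xist, 2.02 with Xist, 2.49 in WT-labelled replicate 1 and 1.72 in WT-labelled replicates 2 to 4.

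Nkd1 (ENSMUSG00000031661, GRCm38 chr8:88521354-88594884, plus strand) was at 13.6, 13.5, 18 and 19.1 CPM with T3 and 6.31, 9.54, 6.61 and 9.03 CPM untreated under the RXRgKO label, and 16.9, 9.88, 8.95 and 7.82 CPM with T3 and 8.89, 4.68, 4.67 and 4.39 CPM untreated under the WT label. Under the WT label, T3-treated replicate 4 lay below untreated replicate 1, and replicate 1 was the highest in both treatments. The change was log2 fold change 1.03, SE 0.26, adjusted p = 0.0455 under the RXRgKO label and log2 fold change 0.95, SE 0.27, adjusted p = 0.0364 under the WT label. However, the RXRgKO call was lost when any 1 of the 8 libraries compared was left out. The WT call was kept in 2 of its 8 such runs. The differences within the 4 sets were close to each other, at 1.06 lacking Xist, 0.99 with Xist, 0.92 in WT-labelled replicate 1 and 0.94 in WT-labelled replicates 2 to 4.

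Fzd9 (ENSMUSG00000049551, GRCm38 chr5:135248938-135251230, minus strand) was at 12.1, 12.2, 8.5 and 12.8 CPM in the T3-treated RXRgKO-labelled libraries, 18.7, 16.1, 18.1 and 16.2 CPM in the untreated RXRgKO-labelled ones, 10.3, 7.29, 8.52 and 9.63 CPM in the T3-treated WT-labelled libraries and 14.9, 15.6, 16.6 and 15.6 CPM in the untreated WT-labelled ones. All T3-treated libraries were lower than all untreated ones of the same label. The change was log2 fold change -0.60, SE 0.14, adjusted p = 0.028 under the RXRgKO label and log2 fold change -0.81, SE 0.14, adjusted p = 0.00163 under the WT label. The RXRgKO call was lost when any 1 of the 4 untreated RXRgKO-labelled libraries or T3-treated replicate 3 was left out, whereas the WT call held in each of its alternatives.

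**Figure D2:**
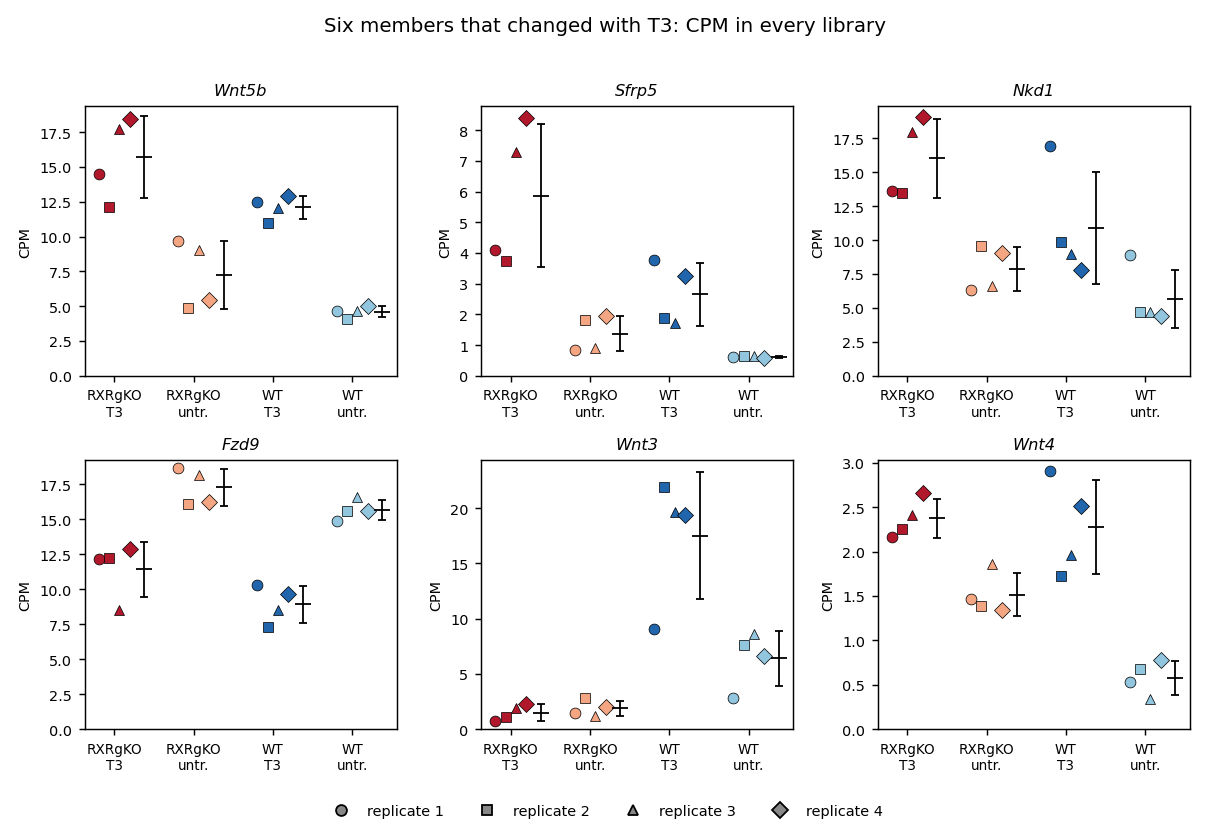
CPM in every library (y axis) of Wnt5b, Sfrp5, Nkd1, Fzd9, Wnt3 and Wnt4 in the 4 groups (x axis); marker shapes give the replicate number, and the bar beside each group is the mean ± SD (n = 4). Wnt5b, Sfrp5 and Nkd1 are higher and Fzd9 lower with T3 under both labels, whereas Wnt3 is at 0.695 to 2.29 CPM and 1.19 to 2.81 CPM in the T3-treated and untreated RXRgKO-labelled libraries.

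Among the genes called for T3 in WT-labelled cells alone, Wnt4 had the largest change for a ligand gene. Wnt4, a ligand with canonical and other actions, measured 2.16, 2.26, 2.42 and 2.66 CPM with T3 and 1.47, 1.38, 1.86 and 1.34 CPM untreated under the RXRgKO label, and 2.91, 1.73, 1.96 and 2.51 CPM with T3 and 0.528, 0.675, 0.336 and 0.782 CPM untreated under the WT label. Under the WT label T3-treated and untreated libraries did not overlap (log2 fold change 1.97, SE 0.24, adjusted p = 7.7e-05), and under the RXRgKO label they did not overlap either (log2 fold change 0.65, SE 0.22, adjusted p = 0.131). The difference between the responses was -1.32 (SE 0.33, adjusted p = 0.219 by edgeR, and 0.0363 by DESeq2).

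Wnt3, a canonical ligand, was at 0.695, 1.1, 1.92 and 2.29 CPM in the T3-treated RXRgKO-labelled libraries, 1.47, 2.81, 1.19 and 2.03 CPM in the untreated RXRgKO-labelled ones, 9.1, 21.9, 19.6 and 19.4 CPM in the T3-treated WT-labelled libraries and 2.8, 7.59, 8.58 and 6.6 CPM in the untreated WT-labelled ones. T3-treated WT-labelled libraries lay above untreated ones, with replicate 1 lowest in both treatments (log2 fold change 1.45, SE 0.37, adjusted p = 0.0213). In RXRgKO-labelled cells the change was -0.28 (SE 0.41, adjusted p = 0.777), and the difference between responses was -1.73 (SE 0.55, adjusted p = 0.5). The WT call was lost when any 1 of T3-treated replicates 2 to 4 or untreated replicate 4 was left out, and without the filter on low counts.

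Apcdd1, which binds Wnts and Lrp5 at the membrane, measured 24.1, 23, 32.2 and 32.7 CPM with T3 and 23, 28.8, 21.3 and 28.2 CPM untreated under the RXRgKO label, and 34.2, 18.3, 18.5 and 16.4 CPM with T3 and 11, 11.1, 11 and 11.2 CPM untreated under the WT label. The untreated WT-labelled libraries lay within a narrow band below all others, and T3-treated replicate 1 lay far above replicates 2 to 4 (log2 fold change 0.98, SE 0.21, adjusted p = 0.00597). Within sets the difference was 1.64 in WT-labelled replicate 1 and 0.67 in replicates 2 to 4. Sfrp4 was at 3.24, 2.68, 3.33 and 2.51 CPM with T3 and 2.18, 1.73, 2.16 and 1.58 CPM untreated under the RXRgKO label, and 3.32, 2.97, 3.2 and 2.88 CPM with T3 and 1.75, 2.15, 2.35 and 2.22 CPM untreated under the WT label. Its change under the WT label was 0.55 (SE 0.16, adjusted p = 0.0479), without overlap, but the call was lost in 13 of 19 alternatives. Under the RXRgKO label the change of Sfrp4 was 0.62 (SE 0.16, adjusted p = 0.0508), also without overlap. There DESeq2 (adjusted p = 0.0217) and limma voom (adjusted p = 0.0457) called it. Fzd6, a receptor known for planar cell polarity, measured 7.49, 6.51, 3.82 and 4.35 CPM with T3 and 5.5, 5.15, 6.7 and 5.42 CPM untreated under the RXRgKO label, and 7.33, 5.23, 4.35 and 5.81 CPM with T3 and 4.51, 1.73, 3.15 and 2.87 CPM untreated under the WT label. T3-treated and untreated WT-labelled libraries overlapped at 4.35 to 7.33 CPM with T3 and 1.73 to 4.51 CPM untreated (log2 fold change 0.89, SE 0.27, adjusted p = 0.0484), and the call was lost in 7 of 19 alternatives.

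**Figure D3:**
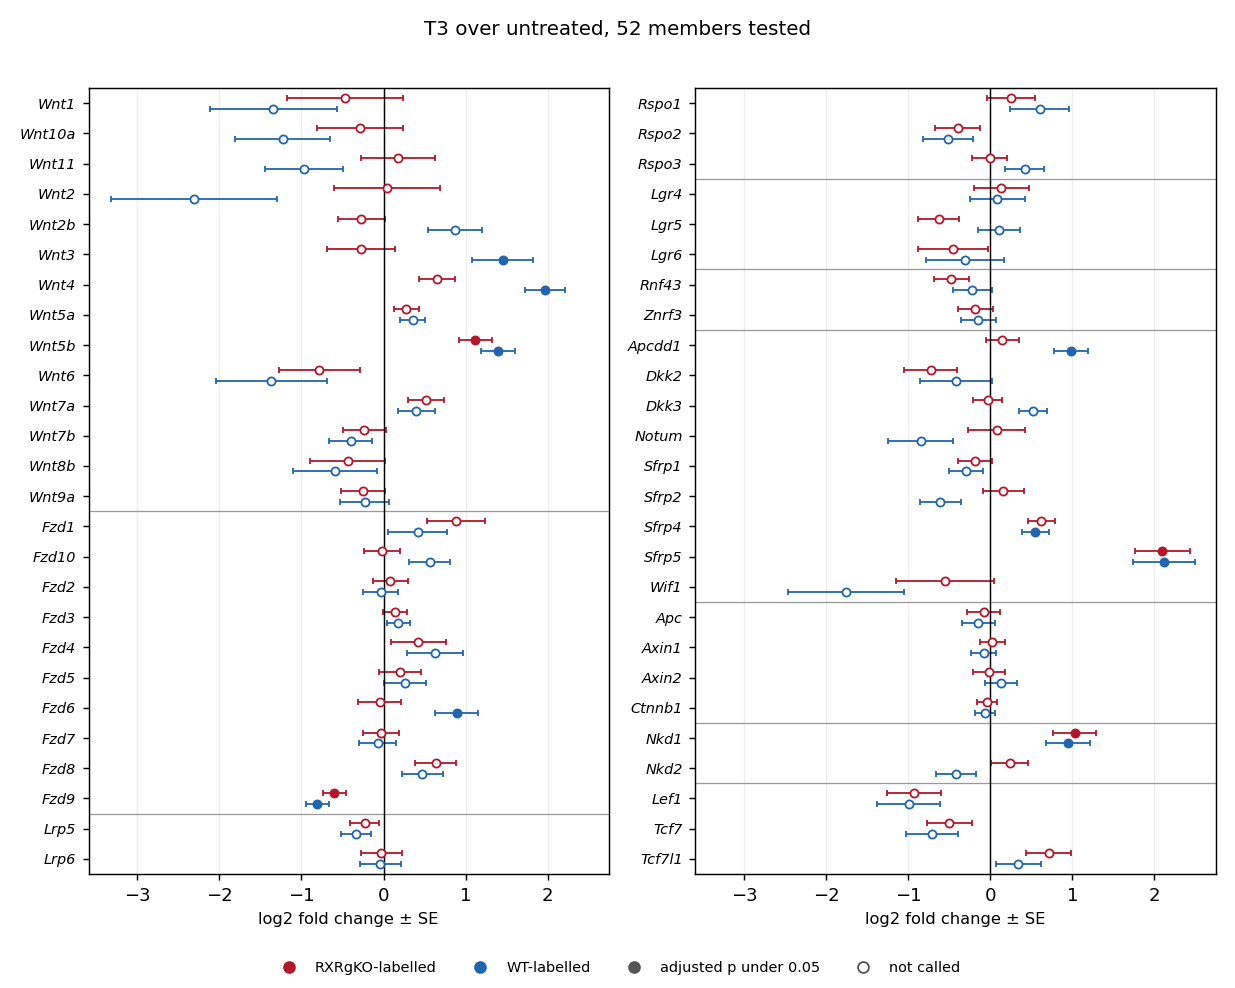
Log2 fold change with T3 over untreated (x axis, ± SE) of the 52 genes tested, in RXRgKO-labelled and WT-labelled libraries (n = 4 per group); filled points have an adjusted p under 0.05. Sfrp5 has the largest called change under both labels (2.09 under RXRgKO and 2.12 under WT), and the points of Ctnnb1, Apc, Axin1, Axin2, Lrp5 and Lrp6 lie between -0.34 and 0.13.

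Other measures also differed between T3-treated and untreated libraries. Of 10 oligodendrocyte markers, 6 rose under each label, and their summed level was 3150.0 to 5122 CPM with T3 and 1687 to 2288 CPM untreated under the RXRgKO label, and 19439 to 29739 CPM with T3 and 13105 to 17673 CPM untreated under the WT label. No marker of that list was at 0. In bulk samples more cells of a type and more RNA per cell cannot be told apart. Of 10 neural stem cell markers, led by Fabp7, 1 fell with T3 under the RXRgKO label, with sums of 4753 to 5207 CPM with T3 and 4150.4 to 4735 CPM untreated. Under the WT label 1 rose and 4 fell, with sums of 4378 to 4733 CPM with T3 and 3468 to 4151 CPM untreated. Of 10 neuronal markers, 4 fell with T3 under the WT label, at 1271 to 1306 CPM with T3 and 1414 to 1799.9 CPM untreated. The part of these markers in the Wnt gene changes was not tested. In WT-labelled replicates 2 to 4, Xist was at 276 to 365 CPM with T3 and 1195 to 1379 CPM untreated, and Ddx3y, a Y-linked gene, at 68.0 to 78.2 CPM with T3 and 13.9 to 15.8 CPM untreated. The T3-treated and untreated libraries thus differed in X- and Y-linked RNA as well. In these replicates, T3 and whatever lies behind that difference cannot be told apart. In replicate 1, Xist was at 401 CPM with T3 and 525 CPM untreated and Ddx3y at 60.6 CPM with T3 and 73.2 CPM untreated. The 9 genes called under the WT label had the same sign there as in replicates 2 to 4. However, replicate 1 was in the fit that chose these 9 genes and is 1 library per treatment. Its signs are therefore no separate test of the T3 changes. Without replicate 1, 9 genes were called, 8 of them among the 9 called with it, against 13.1% of all genes. Pairing the 8 WT-labelled libraries by replicate number gave 16 calls among 47 genes tested (34%), 12 higher and 4 lower, the same 9 among them, and called 29.4% of all genes tested in that fit. The labels do not say that equal numbers are pairs, and replicate 1 alone correlated best with its own number. The 7 others were Dkk3, Fzd1, Fzd4 and Fzd8, which were higher, and Lrp5, Wnt7b and Sfrp2, which were lower. With the library set as a term, 17 of the 52 genes (32.7%) were called for T3 in RXRgKO-labelled cells, against 33.6% of all genes, which is near the background. In WT-labelled cells 26 (50%) were called, against 38.4% of all genes. Pairing the 8 RXRgKO-labelled libraries by number left 0 calls and 0.752% of all genes, Sfrp5 having an adjusted p of 0.0501. There, numbers 2 and 3 each join a library with Xist to one lacking it. Of the 4 RXRgKO calls, 2 were kept without the libraries lacking Xist and 1 without those with Xist.

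The genotype labels differed in more of these genes, and mostly in 1 direction. In RXRgKO-labelled cells the R-spondin genes Rspo1, Rspo2 and Rspo3, the antagonist gene Dkk2, the ligand genes Wnt5a and Wnt9a, the receptor gene Fzd10, the Dishevelled inhibitor gene Nkd2 and the transcription factor gene Tcf7 were higher than in WT-labelled cells both with and without T3. Wnt3 was lower in both. With T3, 14 of the 52 genes were called, 13 higher and 1 lower, against 14.9% of all genes, 8.1% higher and 6.8% lower. Wnt2 and Wnt6 are among the 13 and passed the filter on low counts through RXRgKO-labelled libraries alone. Without T3, 16 were called, 15 higher and 1 lower, against 11.3% of all genes, 6.17% higher and 5.16% lower. By role, 5 of 14 ligand genes tested, the scarce Wnt2 and Wnt6 among them, 1 of 10 Frizzled genes, 3 of 3 R-spondin genes and 3 of 9 extracellular antagonist genes were called with T3, and 5, 2, 3 and 3 without. The median log2 fold change of the 52 was 0.41 with T3 and 0.42 without, and that of all genes 0.02 and -0.00082.

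All 3 R-spondin genes tested were called in both comparisons. Rspo1 measured 1, 1.68, 1.22 and 1.18 CPM with T3 and 1.02, 1.15, 1.36 and 0.715 CPM untreated under the RXRgKO label, and 0.663, 0.527, 0.639 and 0.206 CPM with T3 and 0.325, 0.253, 0.462 and 0.304 CPM untreated under the WT label. Rspo2 was at 5.67, 4.2, 2.75 and 3.12 CPM in the T3-treated RXRgKO-labelled libraries, 4.78, 4.65, 6.23 and 4.92 CPM in the untreated RXRgKO-labelled ones, 0.916, 1.87, 1.79 and 1.11 CPM in the T3-treated WT-labelled libraries and 1.06, 2.61, 2.14 and 2.22 CPM in the untreated WT-labelled ones. Rspo3 was at 7.95, 6.82, 5.12 and 5.58 CPM with T3 and 5.6, 6.96, 6.53 and 6.41 CPM untreated under the RXRgKO label, and 3.22, 2.21, 2.47 and 2.72 CPM with T3 and 2.23, 1.14, 2.9 and 1.69 CPM untreated under the WT label. For each of the 3, the labels did not overlap within either treatment, the RXRgKO-labelled libraries being the higher. The log2 fold changes with T3 were 1.29 (SE 0.32, adjusted p = 0.0099) for Rspo1, 1.47 (SE 0.30, adjusted p = 0.00251) for Rspo2 and 1.25 (SE 0.23, adjusted p = 0.00102) for Rspo3. Without T3 they were 1.64 (SE 0.34, adjusted p = 0.00357), 1.36 (SE 0.29, adjusted p = 0.00432) and 1.68 (SE 0.23, adjusted p = 0.00011). The Rspo2 call with T3 was lost without the RXRgKO-labelled libraries lacking Xist. The fourth R-spondin gene, Rspo4, was not tested, at 0 to 0.262 CPM.

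The R-spondin receptors did not pass the test. Lgr4 measured 25.3, 23.6, 32.5 and 32.9 CPM in the T3-treated RXRgKO-labelled libraries, 21.9, 29.8, 23.9 and 28.7 CPM in the untreated RXRgKO-labelled ones, 39, 15.1, 15.3 and 14.5 CPM in the T3-treated WT-labelled libraries and 36.3, 14.6, 15.3 and 13 CPM in the untreated WT-labelled ones. WT-labelled replicate 1 stood far above replicates 2 to 4 in both treatments. Without replicate 1 in both treatments, Lgr4 was called, at a log2 fold change of 0.94 with T3 (adjusted p = 0.000544) and 0.88 without (adjusted p = 0.00122). Lgr5 was at 1.78, 2.36, 1.56 and 1.45 CPM with T3 and 2.49, 2.81, 2.71 and 2.89 CPM untreated under the RXRgKO label, and 3.22, 1.58, 1.7 and 1.56 CPM with T3 and 2.72, 1.56, 1.81 and 1.48 CPM untreated under the WT label, and without WT-labelled replicate 1 it was called without T3 (log2 fold change 0.77, adjusted p = 0.00763). Lgr6 lay at 0.0948 to 1.36 CPM over all libraries. Of the ubiquitin ligases that R-spondins inhibit, Rnf43 measured 1.66, 1.47, 1.22 and 1.82 CPM with T3 and 2.29, 2.15, 2.2 and 1.94 CPM untreated under the RXRgKO label, and 1.55, 0.767, 0.938 and 0.741 CPM with T3 and 1.1, 1.01, 1.26 and 1.35 CPM untreated under the WT label. It was higher in untreated RXRgKO-labelled cells without overlap (log2 fold change 0.86, SE 0.22, adjusted p = 0.0162), a call lost in 3 of 20 alternatives. With T3 the value was 0.61 (SE 0.23, adjusted p = 0.0877), and without WT-labelled replicate 1 it was 0.92 (adjusted p = 0.00338). Znrf3 was at 13.5, 15, 20.2 and 19.6 CPM in the T3-treated RXRgKO-labelled libraries, 15.2, 22.9, 14.1 and 25.3 CPM in the untreated RXRgKO-labelled ones, 21.7, 15, 14.5 and 11.9 CPM in the T3-treated WT-labelled libraries and 21, 16.7, 16.9 and 15.3 CPM in the untreated WT-labelled ones, and its groups overlapped in each comparison.

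Among the extracellular antagonists, Dkk2, which binds Lrp6, showed the largest difference among the 16 genes called without T3. Its promoter and that of Wnt3, the 1 gene lower under the RXRgKO label, are given from RefSeq on GRCm38.p6; neither holds CTTTGAT or AGGTCA, so no letters are in capitals.
Dkk2, chr3:132085042-132085341, plus strand: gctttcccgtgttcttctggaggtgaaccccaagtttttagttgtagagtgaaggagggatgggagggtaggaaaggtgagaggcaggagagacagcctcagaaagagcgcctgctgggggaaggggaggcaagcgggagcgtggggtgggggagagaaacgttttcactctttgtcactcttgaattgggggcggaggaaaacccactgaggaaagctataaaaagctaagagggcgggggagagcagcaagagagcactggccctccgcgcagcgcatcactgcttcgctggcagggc
Wnt3, chr11:103773925-103774224, plus strand: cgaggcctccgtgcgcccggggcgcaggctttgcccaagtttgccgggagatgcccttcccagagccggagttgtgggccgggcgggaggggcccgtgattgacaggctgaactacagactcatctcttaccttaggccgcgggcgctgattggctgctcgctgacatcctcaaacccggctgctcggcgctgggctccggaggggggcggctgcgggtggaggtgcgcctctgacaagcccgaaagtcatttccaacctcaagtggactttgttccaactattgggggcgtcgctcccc

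Dkk2 (ENSMUSG00000028031, GRCm38 chr3:132085292-132180304, plus strand) was at 3.17, 2.78, 5.67 and 4.87 CPM in the T3-treated RXRgKO-labelled libraries, 3.62, 10.7, 4.62 and 8.64 CPM in the untreated RXRgKO-labelled ones, 0.411, 0.432, 0.682 and 0.659 CPM in the T3-treated WT-labelled libraries and 0.406, 0.843, 1.01 and 0.652 CPM in the untreated WT-labelled ones. The lowest RXRgKO-labelled value, 2.78 CPM, lay above the highest WT-labelled one, 1.01 CPM. The log2 fold change was 2.93 with T3 (SE 0.39, adjusted p = 6.8e-05) and 3.24 without (SE 0.38, adjusted p = 2.3e-05). Among untreated RXRgKO-labelled libraries, replicates 2 and 4, which had Xist, held the higher values.

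Wnt3 (ENSMUSG00000000125, GRCm38 chr11:103774150-103817957, plus strand) had its values given above. With T3, the highest RXRgKO-labelled library, at 2.29 CPM, lay below the lowest WT-labelled one, at 9.10 CPM (log2 fold change -3.49, SE 0.41, adjusted p = 2.2e-05). Without T3, RXRgKO-labelled replicate 2, at 2.81 CPM, just exceeded WT-labelled replicate 1, at 2.80 CPM (log2 fold change -1.76, SE 0.40, adjusted p = 0.00665). The call with T3 held in each alternative, and that without T3 was lost when the RXRgKO-labelled libraries lacking Xist were left out.

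Other ligand genes differed between labels as well. Wnt5a, the prototype of ligands that signal without beta-catenin, measured 38.3, 38, 45.8 and 43 CPM in the T3-treated RXRgKO-labelled libraries, 29.4, 34.7, 35 and 37.1 CPM in the untreated RXRgKO-labelled ones, 30.4, 20.2, 19.6 and 17.3 CPM in the T3-treated WT-labelled libraries and 16.2, 16.1, 17.4 and 18.8 CPM in the untreated WT-labelled ones. The labels did not overlap within either treatment, and T3-treated replicate 1 was the highest WT-labelled library. Its log2 fold change was 0.92 with T3 (SE 0.15, adjusted p = 0.00052) and 0.99 without (SE 0.15, adjusted p = 0.00032). Wnt4, given above, was higher without T3 (log2 fold change 1.38, SE 0.25, adjusted p = 0.00113), and with T3 its libraries overlapped, with a value of 0.06 (adjusted p = 0.914).

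Wnt2b was at 0.926, 0.997, 2.03 and 1.99 CPM with T3 and 1.5, 2.38, 1.82 and 1.64 CPM untreated under the RXRgKO label, and 0.853, 1.01, 1.28 and 1.28 CPM with T3 and 0.69, 0.843, 0.504 and 0.347 CPM untreated under the WT label. It was higher in untreated RXRgKO-labelled cells without overlap (log2 fold change 1.61, SE 0.32, adjusted p = 0.00241), and with T3 the value was 0.46 (adjusted p = 0.355). Wnt9a measured 1.85, 2.47, 2.03 and 1.67 CPM with T3 and 1.64, 2.65, 2.25 and 2.92 CPM untreated under the RXRgKO label, and 1.36, 1.15, 0.597 and 0.988 CPM with T3 and 1.06, 1.94, 0.841 and 0.999 CPM untreated under the WT label. Its log2 fold change was 0.95 with T3 (adjusted p = 0.0337) and 0.97 without (adjusted p = 0.0328), and each call was lost in 9 or 10 of 20 alternatives.

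Wnt2 and Wnt6 lay at very low levels and passed the filter on low counts through RXRgKO-labelled libraries alone, 4 of them for Wnt2 and 5 for Wnt6 being above its limit of 0.398 CPM, against 0 WT-labelled libraries. A gene that passes in this way was selected for higher values under the RXRgKO label. Both, although counted among the 14 calls with T3, are therefore given as values only. Wnt2 was at 0.463, 0.892, 0.156 and 0.148 CPM with T3 and 0.614, 0.0769, 0.636 and 0.179 CPM untreated under the RXRgKO label, and 0, 0.048, 0.0426 and 0.0412 CPM with T3 and 0.122, 0.211, 0.168 and 0.174 CPM untreated under the WT label. With T3 there were 41 counts of Wnt2 over the RXRgKO-labelled libraries and 3 over the WT-labelled ones. Wnt6 was at 0.386, 0.525, 0.182 and 0.172 CPM with T3 and 0.683, 0.346, 0.593 and 0.447 CPM untreated under the RXRgKO label, and 0.0316, 0.048, 0.0426 and 0.165 CPM with T3 and 0.203, 0.295, 0.042 and 0.217 CPM untreated under the WT label. The highest T3-treated WT-labelled library, replicate 4, lay just below the lowest RXRgKO-labelled one, and the call of Wnt6 was lost in 9 of 17 alternatives, among them that without the filter.

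Wnt7a and Wnt7b, the highest ligand genes, were not called in any comparison when only the 4 groups were fitted to all libraries. Wnt7a was at 32.3, 32.5, 44.2 and 44.2 CPM in the T3-treated RXRgKO-labelled libraries, 21.2, 34.4, 20.7 and 30.9 CPM in the untreated RXRgKO-labelled ones, 54.1, 28.5, 27.7 and 28.6 CPM in the T3-treated WT-labelled libraries and 29.7, 24.2, 26 and 25.4 CPM in the untreated WT-labelled ones. Wnt7b was at 33, 32.5, 56.4 and 62.7 CPM with T3 and 44.9, 69.6, 44.1 and 59.1 CPM untreated under the RXRgKO label, and 60.3, 27.9, 27.8 and 29.4 CPM with T3 and 51.6, 46.1, 47.2 and 46.8 CPM untreated under the WT label. For both, T3-treated WT-labelled replicate 1 lay far above replicates 2 to 4. Without replicate 1, Wnt7b was called between labels with T3, at 0.72 (adjusted p = 0.0467) against 0.35 (adjusted p = 0.456) with it. With the library set as a term, Wnt7a was called for T3 under the RXRgKO label (0.53, adjusted p = 0.000103) and the WT label (0.35, adjusted p = 0.0038). In that fit Wnt7b was called for T3 under the WT label (-0.47, adjusted p = 0.011) and between labels with T3 (0.35, adjusted p = 0.0414). Pairing the WT-labelled libraries also called Wnt7b for T3 (-0.49, adjusted p = 0.034). Of the remaining ligand genes tested, Wnt1, Wnt8b, Wnt10a and Wnt11 lay at 0.0384 to 1.53 CPM in single libraries. Wnt3a, Wnt8a, Wnt9b, Wnt10b and Wnt16, which were not tested, lay at 0 to 0.509 CPM.

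**Figure D4:**
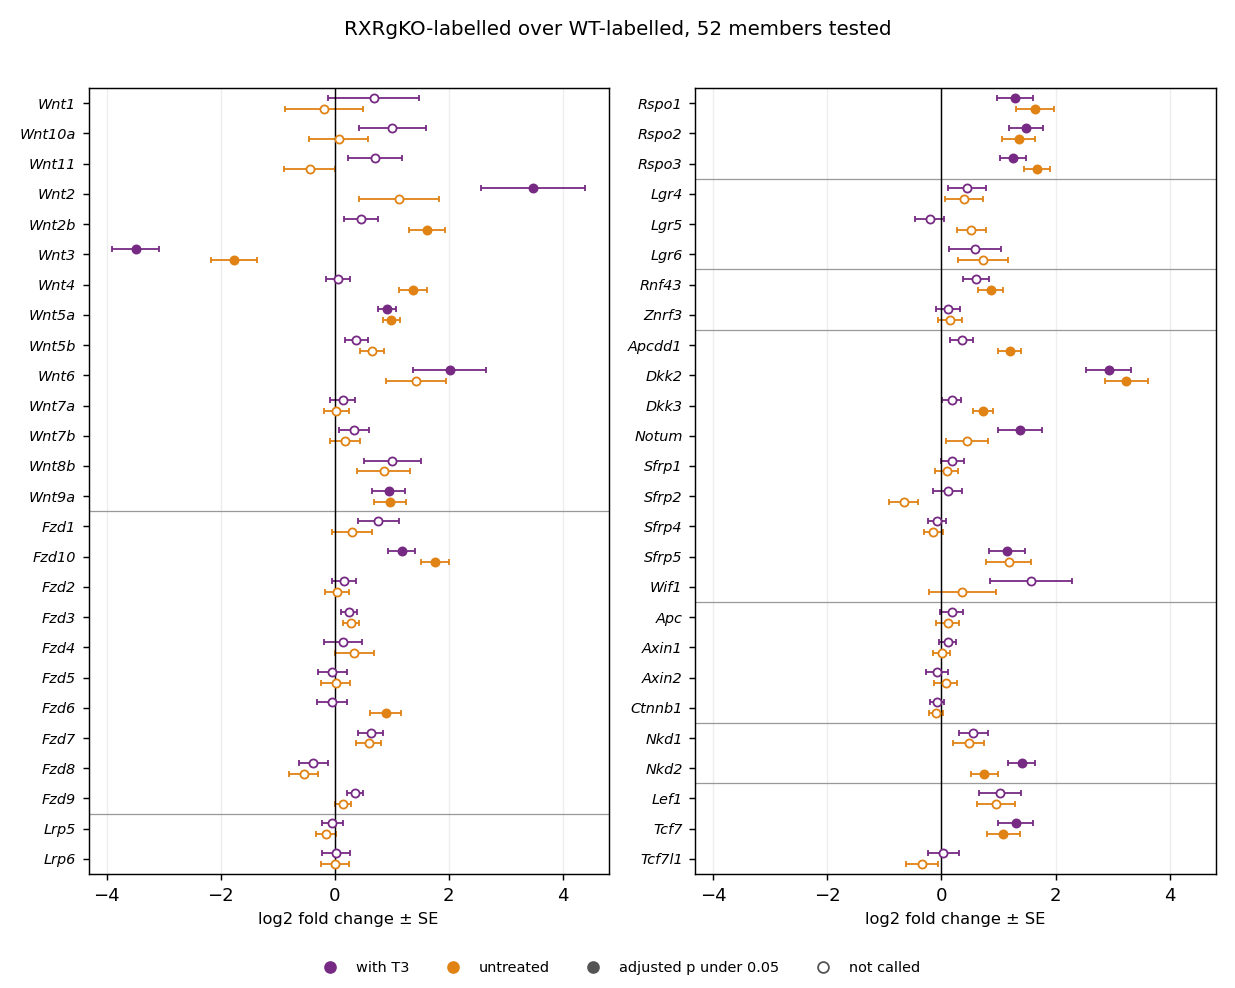
Log2 fold change of RXRgKO-labelled over WT-labelled libraries (x axis, ± SE) of the 52 genes tested, with T3 and untreated (n = 4 per group); filled points have an adjusted p under 0.05, and horizontal lines part the roles. Of the called points, those of Wnt3 alone lie left of 0, at -3.49 with T3 and -1.76 untreated; the R-spondin genes lie between 1.25 and 1.68.

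Of 10 Frizzled genes, Fzd10 was called in both comparisons between labels. Fzd10 measured 3.4, 3.41, 2.86 and 2.61 CPM in the T3-treated RXRgKO-labelled libraries, 2.42, 4.19, 2.46 and 3.25 CPM in the untreated RXRgKO-labelled ones, 1.9, 1.15, 1.02 and 1.28 CPM in the T3-treated WT-labelled libraries and 1.1, 0.885, 1.01 and 0.652 CPM in the untreated WT-labelled ones. All RXRgKO-labelled libraries were above all WT-labelled ones (log2 fold change 1.18, SE 0.23, adjusted p = 0.00216 with T3; log2 fold change 1.75, SE 0.24, adjusted p = 0.00012 without). Fzd6, given above, was higher without T3 (log2 fold change 0.89, SE 0.27, adjusted p = 0.0377), and the call was lost in 8 of 20 alternatives. Fzd9 was not called between labels, at 0.35 with T3 (adjusted p = 0.115) and 0.14 without (adjusted p = 0.632), although without WT-labelled replicate 1 it was called with T3, as it was without T3-treated RXRgKO-labelled replicate 3.

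Fzd3, the highest Frizzled gene and one known for axon guidance and planar polarity, was at 536, 495, 635 and 665 CPM in the T3-treated RXRgKO-labelled libraries, 441, 609.6, 474 and 591 CPM in the untreated RXRgKO-labelled ones, 559.5, 487, 468 and 451 CPM in the T3-treated WT-labelled libraries and 458, 407, 445 and 425 CPM in the untreated WT-labelled ones. Fzd1 was at 54.2, 49.9, 101 and 103 CPM with T3 and 31.4, 53.6, 32 and 50.6 CPM untreated under the RXRgKO label, and 85.1, 30.5, 32.7 and 32.7 CPM with T3 and 52.7, 28.2, 27.7 and 27.3 CPM untreated under the WT label. Its libraries split by set within each group, the higher values being those of the RXRgKO-labelled libraries with Xist and of WT-labelled replicate 1. Without WT-labelled replicate 1, Fzd1 was called with T3 (log2 fold change 1.28, adjusted p = 0.00442). Over all libraries, Fzd2, Fzd5 and Fzd8 lay at 18.2 to 80.8 CPM and Fzd4 and Fzd7 at 3.54 to 15.9 CPM. Without T3, Fzd8 was lower under the RXRgKO label without overlap, but was not called (log2 fold change -0.54, SE 0.25, adjusted p = 0.223). Fitting only the groups compared called it (-0.55, adjusted p = 0.00636). Without the RXRgKO-labelled libraries with Xist it was called without T3 (-0.71, adjusted p = 0.012) and with T3 (-1.18, adjusted p = 0.000361). Fzd7 was called higher with T3 without WT-labelled replicate 1 (0.86, adjusted p = 0.0121). The co-receptor gene Lrp5 measured 18.8, 19.1, 28.1 and 24.9 CPM with T3 and 24.7, 31, 21.3 and 29.7 CPM untreated under the RXRgKO label, and 32.9, 20.1, 20.5 and 20.2 CPM with T3 and 31.3, 27.5, 29.1 and 30.7 CPM untreated under the WT label. Lrp6 measured 98.7, 92.7, 172 and 181 CPM in the T3-treated RXRgKO-labelled libraries, 106, 168, 99.8 and 179 CPM in the untreated RXRgKO-labelled ones, 184, 123, 117 and 112 CPM in the T3-treated WT-labelled libraries and 168, 123, 130.3 and 129.5 CPM in the untreated WT-labelled ones. Replicate 1 was the highest WT-labelled library of Lrp5 and Lrp6 in both treatments, and neither gene was called.

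Besides Dkk2, the antagonist genes Dkk3, Apcdd1, Notum and Sfrp5 were called between labels in 1 of the 2 comparisons. Dkk3, a divergent Dickkopf gene, was at 31.3, 25.9, 31.7 and 32.1 CPM in the T3-treated RXRgKO-labelled libraries, 31.4, 28.9, 35.1 and 28.4 CPM in the untreated RXRgKO-labelled ones, 17.5, 27.2, 30.0 and 32.5 CPM in the T3-treated WT-labelled libraries and 13.9, 19.9, 20.8 and 20.2 CPM in the untreated WT-labelled ones. It was higher in untreated RXRgKO-labelled cells without overlap (log2 fold change 0.73, SE 0.17, adjusted p = 0.01), and with T3 the value was 0.18 (adjusted p = 0.587). Its call was lost without the RXRgKO-labelled libraries lacking Xist. Apcdd1 was higher without T3 (log2 fold change 1.20, SE 0.21, adjusted p = 0.00084), and with T3 its value was 0.36 (adjusted p = 0.28), or 0.67 (adjusted p = 0.00718) without WT-labelled replicate 1. Sfrp5 was higher with T3 (log2 fold change 1.15, SE 0.32, adjusted p = 0.0215), where its libraries overlapped. That call was lost in 5 of 20 alternatives, the lowest value being 0.48 without the RXRgKO-labelled libraries with Xist. Without T3, Sfrp5 was at 1.18 between labels, without overlap, and not called (SE 0.39, adjusted p = 0.0616). DESeq2 called it there (adjusted p = 0.0225), so a difference limited to T3-treated cells is not shown. Notum, an enzyme that strips Wnts of their lipid, measured 1.04, 0.472, 1.17 and 1.23 CPM with T3 and 0.717, 1.12, 0.848 and 1.1 CPM untreated under the RXRgKO label, and 0.569, 0.432, 0.384 and 0.124 CPM with T3 and 1.01, 0.506, 0.504 and 0.738 CPM untreated under the WT label. With T3 it was higher, with overlap (log2 fold change 1.38, SE 0.39, adjusted p = 0.0223), and the call was lost in 7 of 20 alternatives.

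Sfrp1, the highest antagonist gene, was not called in any comparison. It was at 56.7, 48, 71.4 and 81.5 CPM in the T3-treated RXRgKO-labelled libraries, 59.6, 87, 63.1 and 83.9 CPM in the untreated RXRgKO-labelled ones, 59.3, 51.6, 58.7 and 56 CPM in the T3-treated WT-labelled libraries and 42, 75.6, 83.7 and 75.1 CPM in the untreated WT-labelled ones. Sfrp2 lay at 2.62 to 7.19 CPM, Wif1 at 0 to 0.811 CPM, and Dkk1 and Dkk4, which were not tested, at 0 to 0.509 CPM over all libraries. Without T3, Sfrp2 was lower under the RXRgKO label without overlap, but was not called (log2 fold change -0.66, SE 0.25, adjusted p = 0.116). It was called lower without the RXRgKO-labelled libraries with Xist, at -1.04 untreated (adjusted p = 0.00203) and -0.61 with T3 (adjusted p = 0.0325). The 5 antagonist genes called between labels when only the 4 groups were fitted to all libraries were higher in RXRgKO-labelled cells. Sfrp1 was not among them.

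Inside the cell, beta-catenin and its destruction complex showed no called difference with all libraries. Ctnnb1 was at 1003, 937, 1143 and 1226 CPM in the T3-treated RXRgKO-labelled libraries, 1110.2, 1144, 1107 and 1073 CPM in the untreated RXRgKO-labelled ones, 1287, 1082, 1074 and 1119 CPM in the T3-treated WT-labelled libraries and 1258, 1125, 1166 and 1218 CPM in the untreated WT-labelled ones. Apc was at 412, 426, 662 and 702 CPM with T3 and 489, 667, 453 and 718 CPM untreated under the RXRgKO label, and 606, 490.1, 441 and 411 CPM with T3 and 593, 487, 526 and 549 CPM untreated under the WT label. Axin1 lay at 39.8 to 61 CPM over all libraries. Axin2, a target that reads out canonical activity in many tissues, measured 24.9, 23.6, 26.7 and 27.2 CPM in the T3-treated RXRgKO-labelled libraries, 25.9, 25.1, 25.7 and 27 CPM in the untreated RXRgKO-labelled ones, 40.4, 25.2, 21.7 and 21.1 CPM in the T3-treated WT-labelled libraries and 34.5, 21.8, 21.2 and 21.3 CPM in the untreated WT-labelled ones. WT-labelled replicate 1 was the highest library for Axin2 in both treatments, and the other 14 lay between 21.1 and 27.2 CPM. For Ctnnb1, Apc, Axin1, Axin2, Lrp5 and Lrp6, the log2 fold changes lay between -0.34 and 0.18 in the 4 comparisons of 2 groups, 0 were called by edgeR, DESeq2 or limma voom, and 0 had an unadjusted p under 0.05. With other sets of libraries some of the 6 were called. For T3 under the WT label, Lrp5 was called when the libraries were paired (log2 fold change -0.38, adjusted p = 0.032), in the fit with library sets (-0.36, adjusted p = 0.0022) and without T3-treated replicate 1 (-0.57, adjusted p = 0.0478), and under the RXRgKO label in the fit with library sets (-0.24, adjusted p = 0.0387). Between labels with T3, Apc was called without the libraries lacking Xist (0.45, adjusted p = 0.0484) and Lrp6 without those with Xist (-0.55, adjusted p = 0.0445).

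Nkd2, the other Dishevelled-binding inhibitor, was at 4.52, 3.36, 6.73 and 7.11 CPM with T3 and 4.03, 5.5, 4.36 and 4.71 CPM untreated under the RXRgKO label, and 2.84, 2.01, 1.7 and 1.65 CPM with T3 and 3, 2.53, 3.07 and 2.43 CPM untreated under the WT label. RXRgKO-labelled libraries lay above WT-labelled ones of the same treatment, at 1.41 with T3 (SE 0.23, adjusted p = 0.00053) and 0.75 without (SE 0.23, adjusted p = 0.0436), and the call without T3 was lost in 12 of 20 alternatives. Nkd1 was not called between labels, and without WT-labelled replicate 1 it was, in both. Tcf7, the gene of the transcription factor TCF1, measured 1.7, 1.63, 1.35 and 1.13 CPM in the T3-treated RXRgKO-labelled libraries, 1.43, 2, 2.37 and 2.32 CPM in the untreated RXRgKO-labelled ones, 0.884, 0.336, 0.724 and 0.329 CPM in the T3-treated WT-labelled libraries and 1.22, 0.675, 0.925 and 0.999 CPM in the untreated WT-labelled ones. The labels did not overlap, at 1.30 with T3 (SE 0.30, adjusted p = 0.00721) and 1.09 without (SE 0.29, adjusted p = 0.0188). The call without T3 was lost in 5 of 20 alternatives, 4 of which left out 1 library, and the call with T3 was lost without the RXRgKO-labelled libraries lacking Xist. Lef1 was at 0.811, 1.1, 0.884 and 0.59 CPM with T3 and 1.67, 1.42, 2.08 and 1.22 CPM untreated under the RXRgKO label, and 0.474, 0.48, 0.384 and 0.288 CPM with T3 and 1.42, 0.506, 0.378 and 0.956 CPM untreated under the WT label. Its fold changes between labels were 1.02 with T3 (adjusted p = 0.0789) and 0.96 without (adjusted p = 0.0821), and without WT-labelled replicate 1 they were 1.12 (adjusted p = 0.0366) and 1.38 (adjusted p = 0.00868). Tcf7l1, which mainly represses, was at 12.9, 12.1, 26.5 and 23.6 CPM with T3 and 10.1, 13, 9.92 and 13 CPM untreated under the RXRgKO label, and 28.5, 15.2, 15.6 and 14.2 CPM with T3 and 19.9, 13.8, 11.3 and 13.2 CPM untreated under the WT label. Of the 7 feedback targets named above, Nkd1 and Apcdd1 were called for T3, and Apcdd1, Notum and Rnf43 between labels in 1 comparison each, whereas Axin2, Lef1 and Znrf3 were not called.

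**Figure D5:**
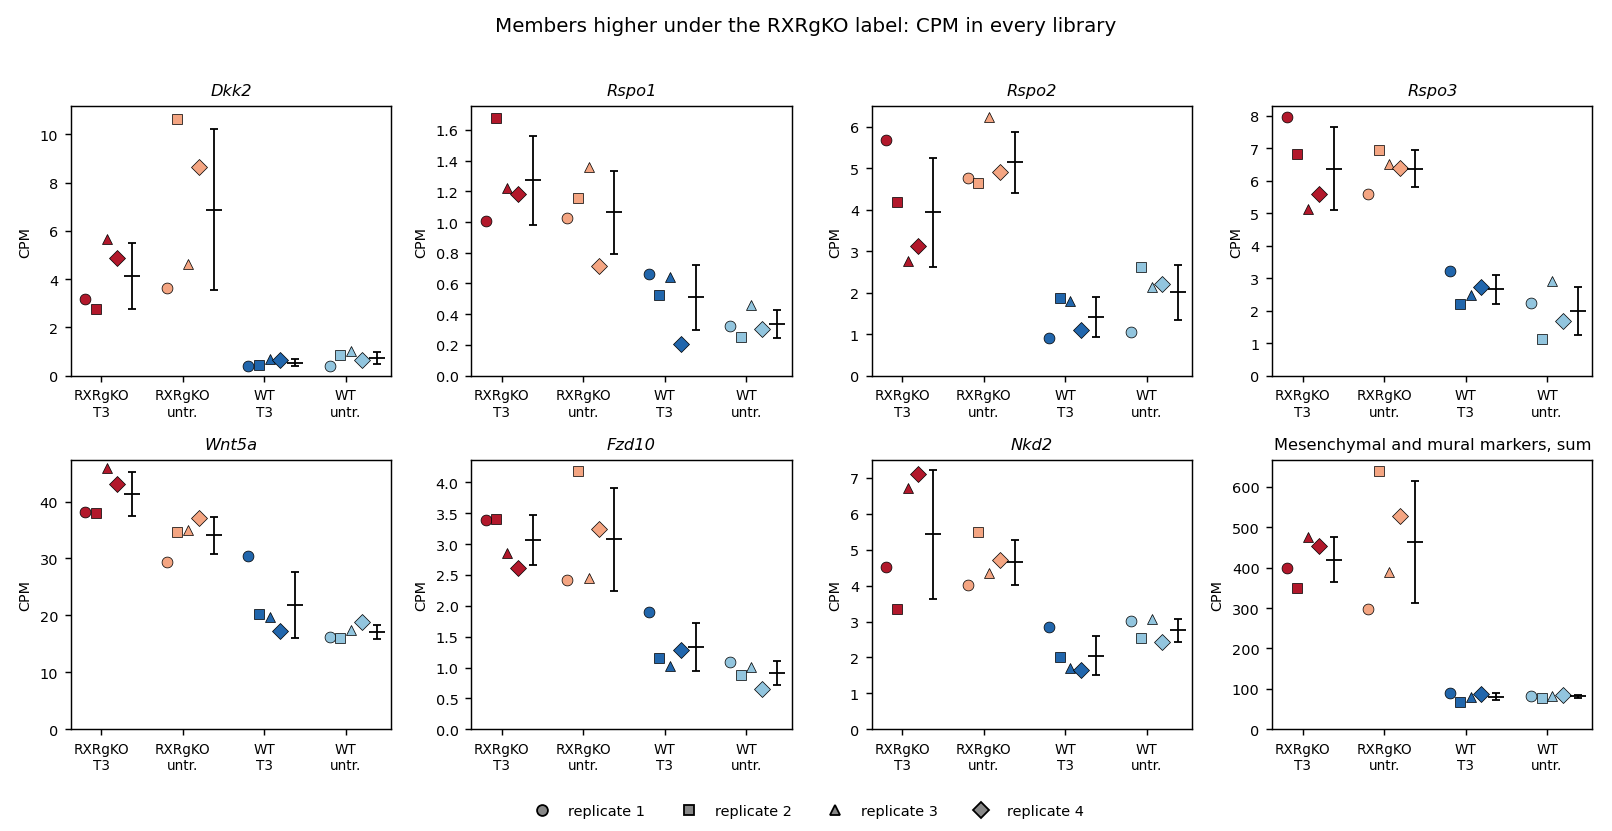
CPM in every library (y axis) of Dkk2, Rspo1, Rspo2, Rspo3, Wnt5a, Fzd10 and Nkd2, and the summed CPM of 10 mesenchymal and mural markers, in the 4 groups (x axis); marker shapes give the replicate number, and bars the mean ± SD (n = 4). The RXRgKO-labelled libraries lie above the WT-labelled ones of the same treatment in each panel, the marker sums at 351 to 477 with T3 and 298 to 639 untreated, against 68.1 to 88.9 and 76.3 to 85.6.

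Markers of other cell types moved with the genotype labels too. Of 10 mesenchymal and mural markers, led by Acta2, 7 were higher in RXRgKO-labelled cells in each comparison, and their sums in single libraries were 351 to 477 CPM in T3-treated and 298 to 639 CPM in untreated RXRgKO-labelled libraries, against 68.1 to 88.9 CPM in T3-treated and 76.3 to 85.6 CPM in untreated WT-labelled libraries. Of 8 endothelial markers tested, 4 were higher in each comparison, at 27.2 to 36.8 and 25.5 to 55.2 CPM against 10.5 to 13.2 and 8.36 to 11.4 CPM. Of 9 microglial markers tested, 8 were higher in each, at 32.3 to 53 and 46.4 to 61.5 CPM against 14.4 to 27.3 and 18.4 to 27.7 CPM. Of 9 ependymal markers tested, 6 were higher in each, at 74.9 to 126 and 64.5 to 110.1 CPM against 39.2 to 47.8 and 27.9 to 36.5 CPM. Neuronal markers were higher for 7 of 10 with T3, at 1742 to 2364 CPM against 1271 to 1306 CPM, and for 2 of 10 without, at 1993 to 2444 CPM against 1414 to 1799.9 CPM. Neural stem cell markers were higher for 1 of 10 with T3 and 2 of 10 without. Of 10 OPC markers, edgeR, DESeq2 and limma voom called 0, with 1 at an unadjusted p under 0.05 in each comparison. Of 10 astrocyte markers, edgeR and limma voom called 0 and DESeq2 1, the last without T3, with 1 at an unadjusted p under 0.05 with T3 and 2 without. Oligodendrocyte markers were lower for 9 of 10 with T3 and 10 of 10 without, with the sums given above. No marker of these lists was at 0 in every library. Their part in the Wnt gene differences was not tested.

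The counts of genes called between labels also moved with the libraries. Without WT-labelled replicate 1, 23 genes were called with T3, 22 higher and 1 lower, 13 of them among the 14 called with it, against 20.5% of all genes. Without T3, 20 were called, against 14.7% of all genes. With only the RXRgKO-labelled libraries that had Xist, 14 of 50 genes tested were called with T3, 13 higher and 1 lower, against 15.8% of all genes. Without T3, 15 were called, all higher, against 11.3% of all genes. Of these, 9 with T3 and 12 without were among those called with all libraries. With only those lacking Xist, 15 of 54 genes tested (27.8%) were called with T3, 11 higher and 4 lower, against 27.5% of all genes, 11.8% higher and 15.7% lower, so that the share called was near the background. Without T3, 17 (31.5%) were called, 14 higher and 3 lower, against 20.9% of all genes. Of these, 11 with T3 and 13 without were among those called with all libraries. With the library set as a term, 26 of the 52 (50%) were called with T3, against 42.5% of all genes, and 30 (57.7%) without, against 37.6% of all genes, including all 14 and all 16 of the original calls.

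For the response difference, over all genes 0.0658% were called, 0.0101% higher and 0.0557% lower, against 0 of the 52. Of the 52 genes, 7 had an unadjusted p under 0.05, Wnt4, Wnt3, Apcdd1, Wnt2b, Fzd6, Dkk3 and Sfrp2. Over all genes, 1017 of 19764 had one. DESeq2 called 1 of the 52, Wnt4, against 0.567% of all genes, and limma voom 0, against 0.0557%. With the library set as a term, 7 of the 52 (13.5%) were called, against 6.68% of all genes. These were Wnt3, Wnt4, Fzd6, Apcdd1 and Dkk3, whose log2 change with T3 was lower under the RXRgKO label than under the WT label, and Fzd1 and Sfrp2, whose change was higher. The comparisons share groups, so the 4 comparisons of 2 groups are not independent of each other.

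A list of 79 other genes of the pathway was measured beside these, of which 75 were tested. T3 raised 2 and lowered 1 of them in RXRgKO-labelled cells, and raised 6 and lowered 6 in WT-labelled cells. Daam2, which binds Dishevelled, was at 134 ± 14.3 CPM with T3 and 44.2 ± 5.57 CPM untreated under the RXRgKO label, and at 189 ± 30.8 CPM with T3 and 70.4 ± 7.11 CPM untreated under the WT label (SD, n = 4 each). It rose under both (log2 fold change 1.60, SE 0.14, adjusted p = 6.2e-06 under RXRgKO; log2 fold change 1.42, SE 0.14, adjusted p = 9.1e-06 under WT). Draxin, an axon guidance gene that also antagonises Wnt, fell under both, by 0.57 on the log2 scale under the RXRgKO label (SE 0.13, adjusted p = 0.027), a call lost in 8 of 20 alternatives, and by 1.23 under the WT label (SE 0.13, adjusted p = 2.4e-05). Under the WT label, Mycn, a reported beta-catenin target, fell by 1.22 (SE 0.14, adjusted p = 4e-05), and Reck, a partner in Wnt7a and Wnt7b reception, rose (log2 fold change 1.12, SE 0.20, adjusted p = 0.00161).

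Between labels, 13 of the 75 were higher and 6 lower with T3, and 10 higher and 5 lower without. Prickle1, a planar polarity gene, was at 23.4 ± 6.95 CPM with T3 and 9.41 ± 0.732 CPM untreated in RXRgKO-labelled cells, against 122 ± 21.7 CPM with T3 and 97.4 ± 14.7 CPM untreated in WT-labelled cells (SD, n = 4 each). Its log2 fold change was -2.38 with T3 (SE 0.20, adjusted p = 9.3e-07) and -3.37 without (SE 0.21, adjusted p = 5.5e-08), and T3 raised it under the RXRgKO label (log2 fold change 1.31, SE 0.20, adjusted p = 0.00107). Gpc4, a glypican, was higher in both, at 1.28 with T3 (SE 0.22, adjusted p = 0.00078) and 1.77 without (SE 0.23, adjusted p = 5.9e-05). Ror1, a receptor for Wnt5a, was higher with T3 (log2 fold change 1.11, SE 0.20, adjusted p = 0.0012), as was Mycn (log2 fold change 0.80, SE 0.14, adjusted p = 0.00076). Bambi, a pseudoreceptor of the transforming growth factor beta family, was higher without T3 (log2 fold change 1.5, SE 0.19, adjusted p = 4.4e-05) and with it (log2 fold change 0.92, SE 0.18, adjusted p = 0.00227), and Lrp4, a relative of Lrp5 and Lrp6, was lower without T3 (log2 fold change -1.02, SE 0.15, adjusted p = 0.0002) and with it (log2 fold change -0.65, SE 0.15, adjusted p = 0.00598). Tcf7l2, the TCF gene best known in oligodendrocyte differentiation, was at 59.5 ± 19.1 CPM with T3 and 42.6 ± 11.8 CPM untreated in RXRgKO-labelled cells, against 89.4 ± 36 CPM with T3 and 72.4 ± 31.3 CPM untreated in WT-labelled cells. It was not called in any comparison, the values between labels being -0.59 with T3 (adjusted p = 0.254) and -0.77 without (adjusted p = 0.151).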

How the data were processed

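RNA of 16 libraries was sequenced after poly-A selection with a stranded kit, per the labels' protocols. The deposited files hold raw read counts per gene made by the authors with HTSeq 0.6.1p1 after alignment with STAR 2.5.3a (reads demultiplexed with bcl2fastq 2.17.1.14) to mm10, per the submitters' processing notes. The sources used here name neither the strand setting nor the annotation release. The 5 HTSeq summary lines were left out; they held 11.5 to 23.5% (no feature) and 39.6 to 55.0% (multiple alignments) relative to all reads listed.

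Gene counts were 18262279 to 42588442 per library. They were fitted in R 4.3.3 with edgeR 4.0.16 (quasi-likelihood test, TMM normalisation, filterByExpr, 1 fit of all 16 libraries) with Benjamini-Hochberg adjustment over 19764 genes. Every p in the report is from this fit unless named. FPKM were computed from these counts and GENCODE M21 exon lengths. Limma 3.58.1 (voom) and DESeq2 1.42.0 were alternatives, as were other filters, normalisations, library sets, replicate blocks and leaving out each library. The code was tested on simulated data.

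The genes, lists and tests were chosen with earlier results of these data known. Values in every library are given for genes called in any comparison, the 2 highest of each role by FPKM and the feedback targets. Of other pathway genes, group means or fold changes are given for up to 4 with the smallest adjusted p per comparison, and for Tcf7l2. The main fit used no pairs, and same-numbered libraries were paired only in the alternative runs with a replicate block. Between same-numbered WT-labelled libraries across T3 treatment, the correlations of their deviations were 0.648, 0.247, 0.211 and 0.164. Those of replicates 2 to 4 lay within the 0.15 to 0.27 found between unequal numbers among them. Replicate 1 alone correlated best with its own number, so pairs are not established by the data or the labels. Between same-numbered RXRgKO-labelled libraries the correlations were 0.543, -0.629, -0.697 and 0.600.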

Additional observations from a re-analysis of the deposited data

Results flagged for a closer look

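Single libraries stood apart from the other 3 of their group in 20 of 156 tests of the genes given in every library, where chance flags about 5% of groups, and 16 of the 20 were WT-labelled replicate 1. In T3-treated WT-labelled replicate 1, Wnt7a was high at 54.1 CPM, Wnt7b at 60.3 CPM, Fzd1 at 85.1 CPM, Lrp5 at 32.9 CPM, Lrp6 at 184 CPM, Lgr4 at 39.0 CPM, Lgr5 at 3.22 CPM, Apcdd1 at 34.2 CPM and Tcf7l1 at 28.5 CPM, and Wnt2 was low at 0 CPM. In untreated WT-labelled replicate 1, Fzd1 was high at 52.7 CPM, Lrp6 at 168 CPM, Lgr4 at 36.3 CPM, Axin2 at 34.5 CPM and Nkd1 at 8.89 CPM, and Dkk3 stood apart at 13.9 CPM. The same 2 libraries had the highest Gfap of the WT-labelled libraries, at 11200.2 CPM with T3 and 4722 CPM untreated, against 2451 to 2831 CPM and 818 to 999 CPM in replicates 2 to 4. Outside replicate 1, Wnt6 was at 0.165 CPM in T3-treated WT-labelled replicate 4, Fzd9 at 8.50 CPM and Dkk3 at 25.9 CPM in T3-treated RXRgKO-labelled replicates 3 and 2, and Rspo2 at 6.23 CPM in untreated RXRgKO-labelled replicate 3.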

How the results depend on the processing

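Of 43 gene results called in the report for these genes, 21 passed the threshold in each alternative run. With the 15 of other pathway genes, 1141 alternative values were computed, of which 1000 kept direction and call, 141 lost the call and 0 changed sign. The counts of called genes under edgeR were 4 for T3 in RXRgKO-labelled cells, 9 for T3 in WT-labelled cells, 14 between labels with T3, 16 between labels without T3 and 0 for the response difference. The shares of all genes were 2.81%, 8.44%, 14.9%, 11.3% and 0.0658% in that order. With the library set as a term the counts were 17, 26, 26, 30 and 7, against 33.6%, 38.4%, 42.5%, 37.6% and 6.68% of all genes, and the cause was not tested. DESeq2 called 1 gene for the response difference, against 0.567% of all genes. Fitting only the groups compared gave 2 for T3 in RXRgKO-labelled cells, against 2.51% of all genes. Leaving out the RXRgKO-labelled libraries with Xist gave 1, against 0.597%. Leaving out WT-labelled replicate 1 in both treatments gave 23 between labels with T3, against 20.5% of all genes.

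A replicate block on the 8 WT-labelled libraries gave 16 calls for T3, against 29.4% of all genes. A replicate block on the 8 RXRgKO-labelled libraries gave 0, against 0.752%. A replicate block in the fit of all 16 libraries gave 3, 9, 13, 16 and 0 in the order above, against 2.61%, 7.78%, 14.3%, 10.7% and 0.0202% of all genes.

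Leaving out 1 library at a time gave 2 to 3 for T3 in RXRgKO-labelled cells, 5 to 8 for T3 in WT-labelled cells, 10 to 21 between labels with T3, 12 to 15 without T3 and 0 for the response difference. The shares of all genes called moved as well. In the same order they were 1.23 to 2.46%, 4.83 to 12%, 10.5 to 15.4%, 8.42 to 10.7% and 0.0145 to 0.237%. The 2 came without any 1 of the untreated RXRgKO-labelled libraries or T3-treated replicate 3, and the 5 without untreated WT-labelled replicate 4 or T3-treated replicate 2. Depth limits the genes under about 1 CPM, such as Wnt2 and Wnt6.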

Other observations

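Among these genes, 4 pairs of ligand genes lie beside each other in the genome (GRCm38). Wnt3 and Wnt9b lie 24329 bases apart on chromosome 11. Wnt3 was at 9.1 to 21.9 CPM in T3-treated WT-labelled libraries, where it was highest, and Wnt9b was at 0.0298 to 0.444 CPM over all libraries. Wnt10a and Wnt6 lie 6194 bases apart on chromosome 1, at 0.0948 to 0.84 CPM and 0.0316 to 0.683 CPM. Wnt3a and Wnt9a lie 16176 bases apart on chromosome 11, at 0 to 0.339 CPM and 0.597 to 2.92 CPM, and Wnt1 and Wnt10b 11707 bases apart on chromosome 15, at 0.0384 to 0.59 CPM and 0 to 0.509 CPM.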
